A study of Mus musculus with 14 samples.

Results

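The nuclear-encoded subunits of oxidative phosphorylation were examined in mouse liver, complex by complex, across Pkd1 genotypes. Members were the rows of the deposited count table whose gene names begin with the subunit prefixes of complex I (Nduf followed by a letter and a number), complex II (Sdha to Sdhd), complex III (Uqcr), complex IV (Cox4 to Cox8) or complex V (Atp5), and whose mean over the 14 libraries was at least 1 CPM (counts scaled to a common library size). Of 93 rows with such names, 80 met that level, out of 57180 genes in the table, and 39 of them belong to complex I, 4 to complex II, 8 to complex III, 11 to complex IV and 18 to complex V. All 80 also passed the low-count filter and were among the 16201 genes tested. RNA from whole liver was sequenced for 4 mice labelled Pkd1 Homo, 4 labelled Pkd1 Het and 6 labelled WT. All of these mice were on normal chow. Each label calls the mouse a littermate without naming the litter, and the label of each group, WT included, also names Cre. The labels do not state the Pkd1 allele, the promoter that drives Cre, or the age and sex of the mice, so they leave unstated which cells of the liver carry the change.

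Oxidative phosphorylation passes electrons from NADH through complex I, or from succinate through complex II, to ubiquinone, then through complex III and cytochrome c to complex IV, which reduces oxygen. Complexes I, III and IV pump protons across the mitochondrial inner membrane, and complex V, the ATP synthase, makes ATP as the protons flow back. Hepatocytes are rich in mitochondria and use this ATP for gluconeogenesis, urea synthesis and other demanding work. Most subunits are encoded in the nucleus and imported, while a small set is encoded in mitochondrial DNA, so the complexes are built from both genomes. Binding sites for NRF1, for the ETS factor GABP and for YY1 are known features of promoters of this gene family.

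The promoters of the family were therefore read first. RefSeq promoter windows on build GRCm38.p6, each with 250 bases before and 50 bases after a gene start, were found for 66 of the 80 members, and 5 members had more than 1 window, which gave 71 windows. The letters GCGCATGC, the core of the NRF1 site, stood on either strand in 14.1% of the members' windows, against 2.71% of the 32851 windows of all genes. The ETS letters CCGGAAG stood in 22.5% of the members' windows, against 8.86% of all. The YY1 letters AAGATGGC stood in 14.1%, against 2.75%. Of the 71 windows, 30 held at least 1 of these motifs, and the median GC content was 57.7% in members' windows, against 52.7% in all windows. A match is a run of letters and not a shown binding site. The 5 windows below, 1 for each complex, were chosen after the matches were seen, to show how the motifs lie near the starts of members described further on. Capitals mark the matches, GCATGCGC and CTTCCGG being the NRF1 and ETS letters of the other strand. GCGCATGCGC holds the NRF1 letters on both strands, which overlap there, and no other matches in these windows overlap. The windows are chr17:56717512-56717811 (plus strand) for Ndufa11, chr4:140961021-140961320 (plus strand) for Sdhb, chr10:80406772-80407071 (minus strand) for Uqcr11, chr5:115348909-115349208 (minus strand) for Cox6a1 and chr5:108434350-108434649 (minus strand) for Atp5me, each written 5′ to 3′ along its gene.
Ndufa11: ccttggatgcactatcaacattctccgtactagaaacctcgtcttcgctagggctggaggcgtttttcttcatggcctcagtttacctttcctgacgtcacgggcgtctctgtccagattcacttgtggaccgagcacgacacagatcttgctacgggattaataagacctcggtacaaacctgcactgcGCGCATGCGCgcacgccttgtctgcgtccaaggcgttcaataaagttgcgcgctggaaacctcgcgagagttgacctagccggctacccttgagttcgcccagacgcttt
Sdhb: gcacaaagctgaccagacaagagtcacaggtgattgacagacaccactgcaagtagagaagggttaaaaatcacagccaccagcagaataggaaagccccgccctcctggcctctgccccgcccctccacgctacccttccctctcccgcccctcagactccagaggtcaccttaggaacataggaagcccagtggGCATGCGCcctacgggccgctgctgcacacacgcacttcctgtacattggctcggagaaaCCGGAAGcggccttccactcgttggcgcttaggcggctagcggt
Uqcr11: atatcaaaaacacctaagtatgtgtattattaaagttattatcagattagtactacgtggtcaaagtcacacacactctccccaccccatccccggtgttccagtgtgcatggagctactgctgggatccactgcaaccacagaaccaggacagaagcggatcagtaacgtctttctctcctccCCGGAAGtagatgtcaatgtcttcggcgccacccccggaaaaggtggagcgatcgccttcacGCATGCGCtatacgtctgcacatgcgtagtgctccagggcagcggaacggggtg
Cox6a1: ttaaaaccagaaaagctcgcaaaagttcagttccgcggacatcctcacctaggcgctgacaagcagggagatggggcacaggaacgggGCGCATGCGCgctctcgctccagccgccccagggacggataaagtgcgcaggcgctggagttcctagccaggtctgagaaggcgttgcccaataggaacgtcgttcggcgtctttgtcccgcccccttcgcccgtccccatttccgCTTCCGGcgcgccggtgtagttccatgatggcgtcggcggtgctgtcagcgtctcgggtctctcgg
Atp5me: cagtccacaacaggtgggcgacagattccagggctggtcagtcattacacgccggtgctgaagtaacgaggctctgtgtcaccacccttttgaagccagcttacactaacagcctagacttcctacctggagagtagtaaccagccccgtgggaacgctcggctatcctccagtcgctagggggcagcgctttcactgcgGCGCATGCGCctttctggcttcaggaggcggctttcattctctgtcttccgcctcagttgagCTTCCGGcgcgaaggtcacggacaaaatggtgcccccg
The Sdhb, Uqcr11, Cox6a1 and Atp5me windows hold NRF1 and ETS letters, and the Ndufa11 window holds NRF1 letters without ETS letters.

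Total counts were 18573686 to 28431839 in Homo, 22833800 to 26245428 in Het and 25238117 to 40925909 in WT libraries. Levels below are CPM after TMM scaling, a correction of library size, unless said to be per kb or by library total alone. The cell type marker sums of this paragraph are CPM by library total alone. Pkd1 (ENSMUSG00000032855) was at 23.1, 26.2, 25.5 and 26.4 CPM in Homo livers, at 31.6, 28.1, 32.6 and 36.7 CPM in Het livers, and at 31.4, 33.5, 37.0, 36.9, 32.0 and 37.7 CPM in WT livers. Every Homo library lay below every WT library (fold 0.728, edgeR adjusted p = 0.0246), and the call ended in 9 of 21 other settings, among them without any 1 of the 4 Homo libraries (adjusted p up to 0.131). Hepatocyte markers (7 genes) summed to 54300 to 77100 CPM in Homo, 51100 to 62800 in Het and 53000 to 74500 in WT livers, so the labelled tissue was present in every library. Striated muscle markers (8 genes) summed to at most 1.01 CPM and adipocyte markers (5 genes) to at most 0.366 CPM in any library. Bile duct markers (6 genes, 2 of them above 1 CPM) summed to 20.6 to 69.7 CPM in Homo, 28.1 to 36.4 CPM in Het and 25.7 to 36.3 CPM in WT livers. Kupffer cell markers (8 genes) summed to 262 to 294 CPM in Homo, 224 to 279 CPM in Het and 218 to 264 CPM in WT livers, so that Homo and WT overlapped between 262 and 264 CPM. Lymphocyte markers (7 genes, 2 of them above 1 CPM) summed to 22.8 to 29 CPM in Homo livers. Their sums were 19.9 to 21.2 CPM in Het and 11.2 to 20.8 CPM in WT livers. On this scale Homo and WT did not overlap. Overlap of the marker sums after TMM scaling was not tested. The part of these cell types in the values below was not tested. In bulk tissue, fewer cells of a type and less RNA per cell cannot be told apart.

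The library WT 1 stood apart, for this gene family and over all genes. It was the lowest or the highest of all 14 libraries for 42 of the 80 members (52.5%). Over all genes of at least 10 CPM it was so for 29.2%. Each other library was at an extreme for 3 to 18 members and for 6.11% to 18.2% of those genes. Values without WT 1 are therefore given beside the main comparisons of the members with WT livers.

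The subunit genes were among the better expressed genes of the liver and varied little between mice. Per kb of exon, the median member was at 67.1 CPM per kb, against 2.79 CPM per kb for all genes tested, and all 79 members with an annotated length lay above the median of all genes. Median levels per length were 47 CPM per kb in complex I, 94.1 in complex II, 108 in complex III, 157 in complex IV and 106 in complex V. The highest were Cox6a1, a small subunit of complex IV, at 397 CPM per kb, Atp5f1b, the catalytic beta subunit of ATP synthase, at 348, and Cox8a, another small complex IV subunit, at 291. They were followed by Atp5me, a membrane subunit of ATP synthase, at 271, Uqcr11, a small subunit of complex III, at 248, and Ndufb9 of complex I at 239. The lowest was Ndufb2 of complex I at 11 CPM per kb, still above the median gene. The spread between mice of a genotype was taken as the coefficient of variation (CV) of CPM. Its median over members was 6.34% in Homo, 4.97% in Het and 7.01% in WT livers. Over all genes tested the medians were 15.2%, 15.3% and 16.1%. All genes tested were not matched to the members for level, and the part of level in this difference was not tested.

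**Figure D1:**
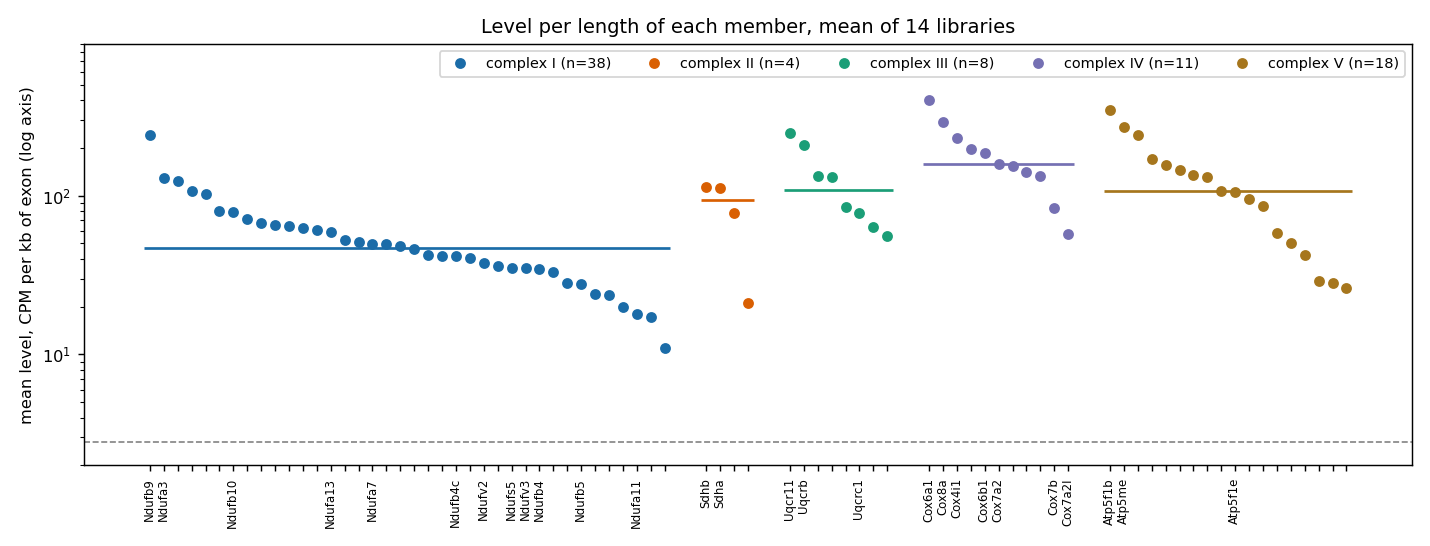
Mean level of 79 members over the 14 libraries in CPM per kb of exon (log axis), ordered within each complex, with names for the members selected by the naming rule. Solid lines are the medians of the complexes, from 47 in complex I to 157 in complex IV, and the dashed line is the median of all genes tested, 2.79.

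No nuclear-encoded subunit gene differed past the threshold between Homo and WT livers. With edgeR, 0 of 80 members had an adjusted p under 0.05, 2 had an unadjusted p under 0.05, and DESeq2 likewise called 0 with 2 at an unadjusted p under 0.05. Over all genes, 0.222% were called in this comparison (36 of 16201), so a count of 0 among 80 lies near that background. The members' log2 fold changes of Homo over WT ran from -0.219 to 0.208, with a median of -0.0309, against 0.0022 over all genes tested. Of the members, 54 (67.5%) had a fold below 1, against 49.4% of all genes. This small shift moved with WT 1: without it the members' median was -0.0094 with 45 members below 1, against 0.0034 over all genes. With library totals alone the members' median was 0.0082 with 33 below 1, but the median of all genes moved too, to 0.042. The intervals were narrow, with a median standard error of 0.0711 on the log2 scale. For all 80 members the 95% interval of the fold lay wholly within 1.5-fold either way (59.8% of all genes tested). For 63 of 80 it lay within 1.2-fold (23.2% of all genes tested), a bound chosen after the data were seen. The genes behind these background shares were not matched to the members for level.

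**Figure D2:**
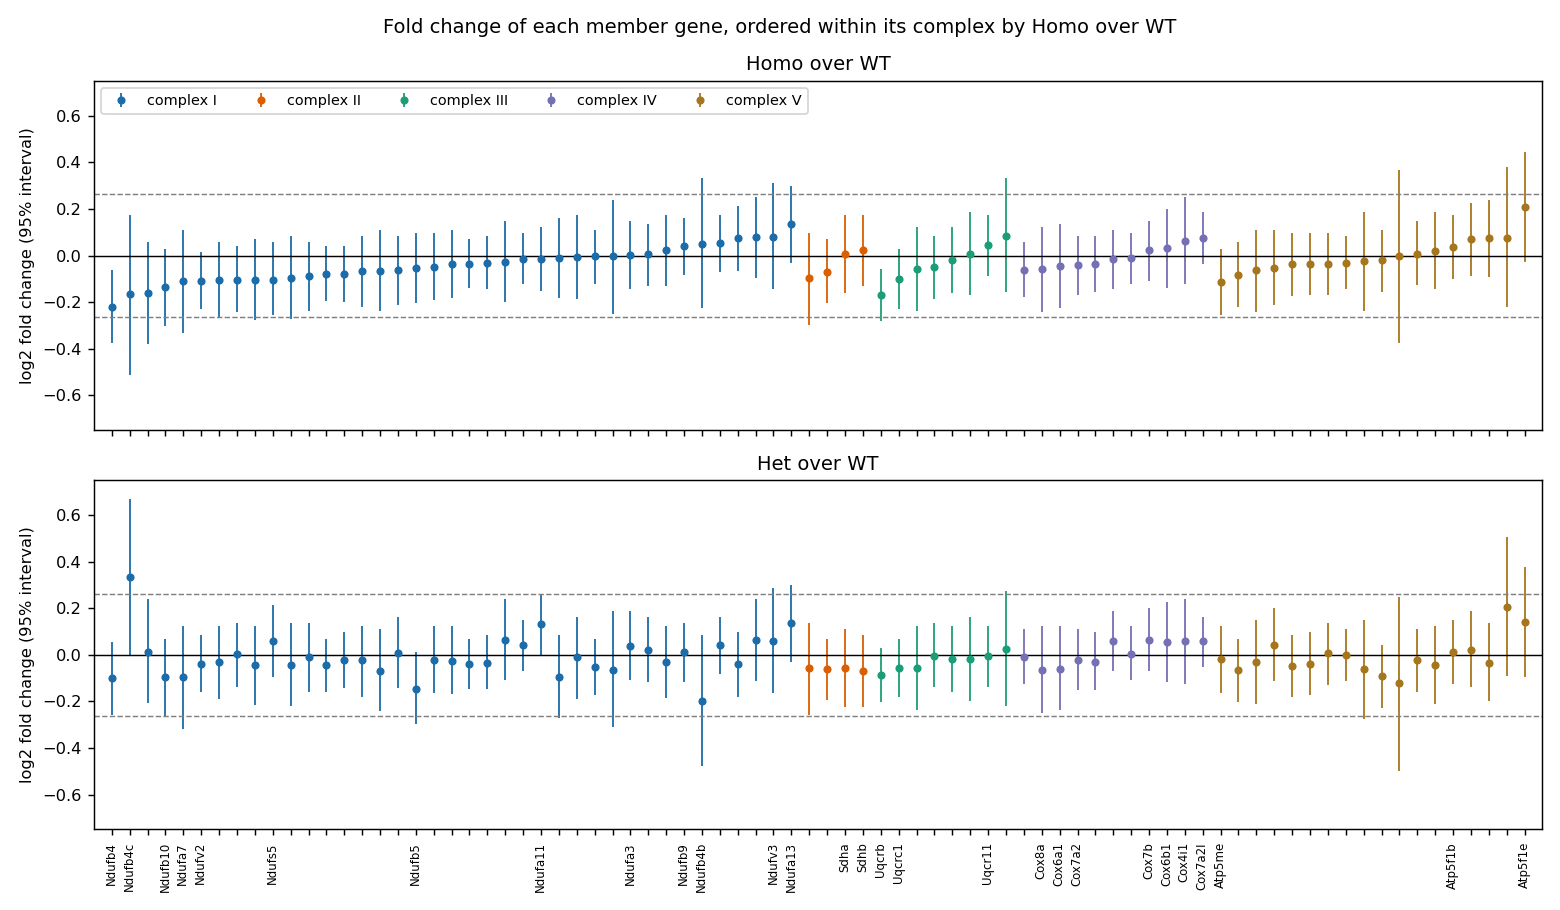
Log2 fold change of each of the 80 members with its 95% interval from edgeR, Homo over WT above and Het over WT below, coloured by complex and ordered within a complex by Homo over WT. Names are printed for the members selected by the naming rule. Dashed lines mark 1.2-fold either way, and 63 of the Homo and 65 of the Het intervals lie within them.

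The summed level of each complex overlapped between the genotypes. Complex I subunits summed to 2030, 2004, 2151 and 2068 CPM in Homo, to 2063, 2023, 2168 and 2097 CPM in Het, and to 2198, 2121, 2062, 2103, 2029 and 2105 CPM in WT livers. Complex II summed to 614.4 ± 34 CPM in Homo (SD, n = 4), 595.1 ± 31.2 in Het (n = 4) and 619.8 ± 16.2 in WT livers (n = 6). Complex III summed to 815.6 ± 19.8 CPM in Homo, 823.2 ± 14 in Het and 840.6 ± 19.1 in WT livers. In each of these 3 complexes the Homo mean was below the WT mean by less than 2 SD of either group, and single libraries of the groups interleaved. Complex IV summed to 1517 ± 51.8 CPM in Homo, 1534 ± 34.2 in Het and 1531 ± 45.1 in WT livers, and complex V to 2974 ± 58.5, 2945 ± 142 and 2976 ± 73.1 CPM in Homo, Het and WT livers. Without WT 1 the WT means of complexes I to V were 2084 ± 37.6, 617.4 ± 16.8, 844.7 ± 18.3, 1519 ± 39.5 and 2959 ± 67.4 CPM (SD, n = 5), and for complex V the Homo mean was then above the WT mean. All 80 members together took 0.784% to 0.848% of the counts in Homo, 0.739% to 0.8% in Het and 0.757% to 0.835% in WT libraries. The mitochondrially encoded subunits took a far larger share, 9.73% to 10.4% in Homo, 8.68% to 10.1% in Het and 8.98% to 11.4% in WT libraries, where the highest share was that of WT 1.

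**Figure D3:**
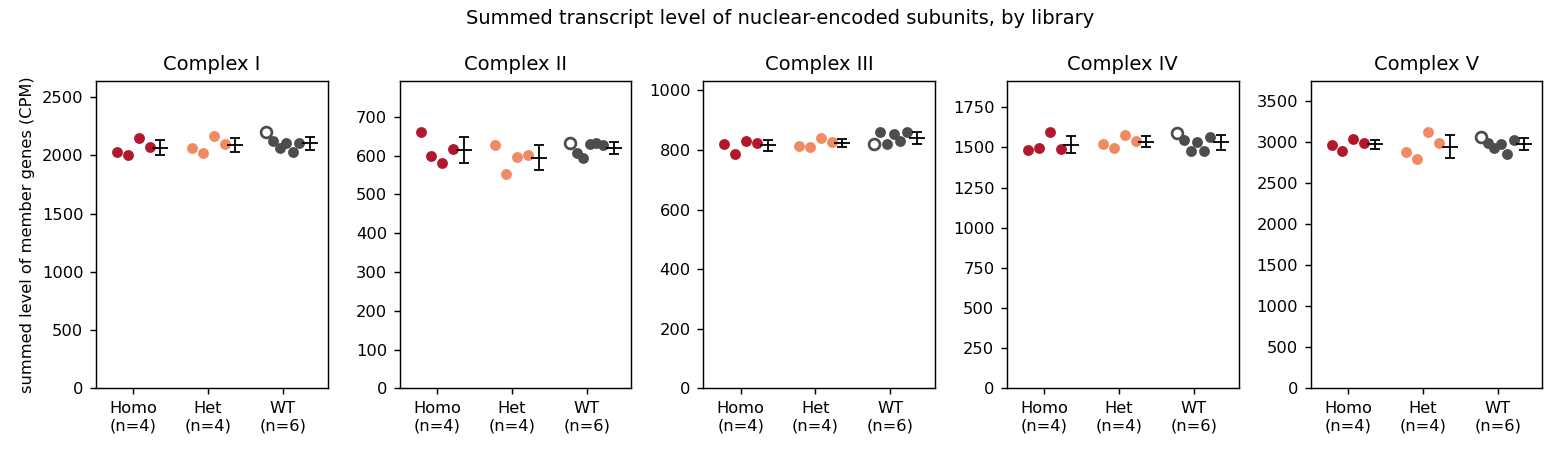
Summed CPM of the members of each complex in every library, for Homo, Het and WT, with mean and SD beside the points. The open circle is WT 1. The libraries of the 3 genotypes overlap in all 5 panels.

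In complex I, which accepts electrons from NADH, 29 of 39 members had a fold of Homo over WT below 1 (median log2 -0.038), and 24 of 39 without WT 1 (median -0.0344). The flavin and the iron-sulfur clusters sit in nuclear-encoded core subunits, though not in every one of them. Ndufv1, which binds NADH, was at 73.2 ± 2.64 CPM in Homo, 73 ± 2.74 in Het and 75.1 ± 1.72 in WT livers (SD, n = 4, 4 and 6). Across the core genes Ndufs1, Ndufs3, Ndufs7, Ndufs8, Ndufv1 and Ndufv2 the folds of Homo over WT ran from 0.927 to 0.989 and those of Het over WT from 0.972 to 1.03, and each interval included 1. Without WT 1 they ran from 0.933 to 0.991 and from 0.97 to 1.03. The 2 highest per length, Ndufb9 and Ndufa3, which are accessory subunits of the membrane arm, had folds of 1.03 (95% interval 0.944 to 1.12) and 1 (0.905 to 1.11), and of 1.01 and 1.03 without WT 1. Ndufa13, an accessory subunit also known as GRIM-19, had the highest fold of complex I in Homo over WT with all libraries, while without WT 1 Ndufv3 was above it at 1.13. It was at 76.1, 72, 81.2 and 77.7 CPM in Homo, at 77.4, 71.8, 85 and 72.9 CPM in Het, and at 58.7, 79, 69.1, 71.6, 67.9 and 73.1 CPM in WT livers. The groups overlapped, the fold was 1.1 in both Homo and Het over WT (edgeR adjusted p = 0.998 for each), and without WT 1, the lowest WT library, both folds were 1.06. Ndufa4 is counted here with complex I by its name, although its protein is now assigned to complex IV. It was at 67.7 ± 2.15 CPM in Homo, 67.2 ± 4.46 in Het and 65.2 ± 3.36 in WT livers.

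Ndufb4, an accessory subunit of the complex I membrane arm, had the second smallest p of all members in Homo against WT. It was at 29.2, 31.8, 30.5 and 30.4 CPM in Homo, at 32.3, 32.3, 33.9 and 33.9 CPM in Het, and at 42.3, 33.1, 33.2, 32.3, 38.2 and 33.7 CPM in WT livers. All Homo libraries lay below all Het and all WT libraries, the nearest values being 31.8 and 32.3 CPM. The fold of Homo over WT was 0.859 (95% interval 0.77 to 0.959, edgeR p = 0.0101, adjusted p = 0.892, exact permutation p = 0.0238), and 0.893 without WT 1 (edgeR adjusted p = 0.733). The counts of Ndufb4 are uncertain, because the transcript annotated for Ndufb4c is identical to it over 390 bases, and the table also holds Ndufb4b, whose transcript is not in the annotation used. Ndufb4c was at 12.1, 12.7, 14.5 and 16 CPM in Homo, at 20.1, 13.2, 25.3 and 19.6 CPM in Het, and at 16.1, 16.5, 16.2, 19.3, 12.7 and 12.3 CPM in WT livers. It had the smallest p of the members in Homo against Het (fold 0.707, 95% interval 0.544 to 0.917, edgeR p = 0.0125, adjusted p = 0.916, exact permutation p = 0.0857). Het 3, the highest library for Ndufb4c, was the lowest of all for Ndufb4b, at 11.8 CPM. Ndufb4b was at 16.7 to 21.8 CPM in Homo, 11.8 to 18.9 CPM in Het and 15 to 21.9 CPM in WT livers, with all 3 ranges overlapping. In Het livers Ndufb4c took 20.9% to 35.7% and Ndufb4b 16.6% to 28.1% of the counts of the 3 genes. Summed over Ndufb4, Ndufb4b and Ndufb4c, the level was 59.7 to 68.2 CPM in Homo, 63.4 to 71.3 CPM in Het and 66.5 to 77 CPM in WT livers, and the groups then overlapped (Homo over WT fold 0.914, edgeR adjusted p = 0.997).

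In complex II, succinate dehydrogenase, which also works in the citric acid cycle, 2 of 4 members lay below 1 in Homo over WT, and 3 of 4 without WT 1. Sdha, the flavoprotein, was at 370, 327, 288 and 316 CPM in Homo, at 332, 279, 313 and 321 CPM in Het, and at 312, 311, 298, 342, 332 and 348 CPM in WT livers. Homo 1 and Homo 3 were the highest and the lowest of their group for Sdha, and the fold of Homo over WT was 1 (95% interval 0.895 to 1.13). Sdhb, the iron-sulfur subunit, had a fold of 1.02 (0.913 to 1.13). The membrane anchors Sdhc and Sdhd had folds of 0.936 and 0.953. For Sdhc WT 1 was at 90.6 CPM, against 60.4 to 67.3 CPM in the other WT libraries, and 63.6 to 64.9 CPM in Homo livers, and without WT 1 the fold of Sdhc was 0.998.

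In complex III, the cytochrome bc1 complex, 5 of 8 members lay below 1 in Homo over WT, and 6 of 8 without WT 1. Uqcrb, a small subunit at the ubiquinone pocket, had the smallest p of all 80 members in Homo against WT. It was at 105, 96.3, 104 and 108 CPM in Homo, at 107, 110, 114 and 107 CPM in Het, and at 112, 116, 115, 111, 123 and 119 CPM in WT livers. Every Homo library lay below every WT library, and the Het libraries lay across both ranges. The fold of Homo over WT was 0.889 (95% interval 0.822 to 0.962, edgeR p = 0.00643, adjusted p = 0.78, exact permutation p = 0.00476, the smallest that 4 against 6 libraries allow). Without WT 1 it was 0.883 (edgeR adjusted p = 0.556). In Het the fold over WT was 0.941 (0.869 to 1.02, edgeR adjusted p = 0.998). Counts of Uqcrb are uncertain too, because 4 annotated processed pseudogenes match it at 93.2% identity or more. Those 4 took 11.5 to 18.1 CPM in Homo, 13.2 to 20.4 in Het and 8.24 to 15.6 CPM in WT livers. With their counts added, the level was 111 to 125 CPM in Homo, 122 to 131 in Het and 127 to 135 CPM in WT livers, still without overlap between Homo and WT, and the fold was 0.913 (edgeR adjusted p = 0.997).

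The core proteins of complex III, Uqcrc1 and Uqcrc2, had folds of Homo over WT of 0.932 (95% interval 0.853 to 1.02) and 0.96 (0.847 to 1.09), and of 0.95 and 0.92 without WT 1. Uqcrfs1, the Rieske iron-sulfur protein, was at 86.1, 75.2, 78.7 and 75.3 CPM in Homo, at 77.7, 76.9, 72.8 and 75.5 CPM in Het, and at 48.7, 78.2, 80.2, 78.7, 78.5 and 81.6 CPM in WT livers. A single WT library, WT 1, was far below the other 13. The fold of Homo over WT for Uqcrfs1 was 1.06 with WT 1 and 0.992 without it. Uqcr11 was at 113 ± 6.52 CPM in Homo, 109 ± 2.51 in Het and 109 ± 7.15 in WT livers (SD, n = 4, 4 and 6).

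**Figure D4:**
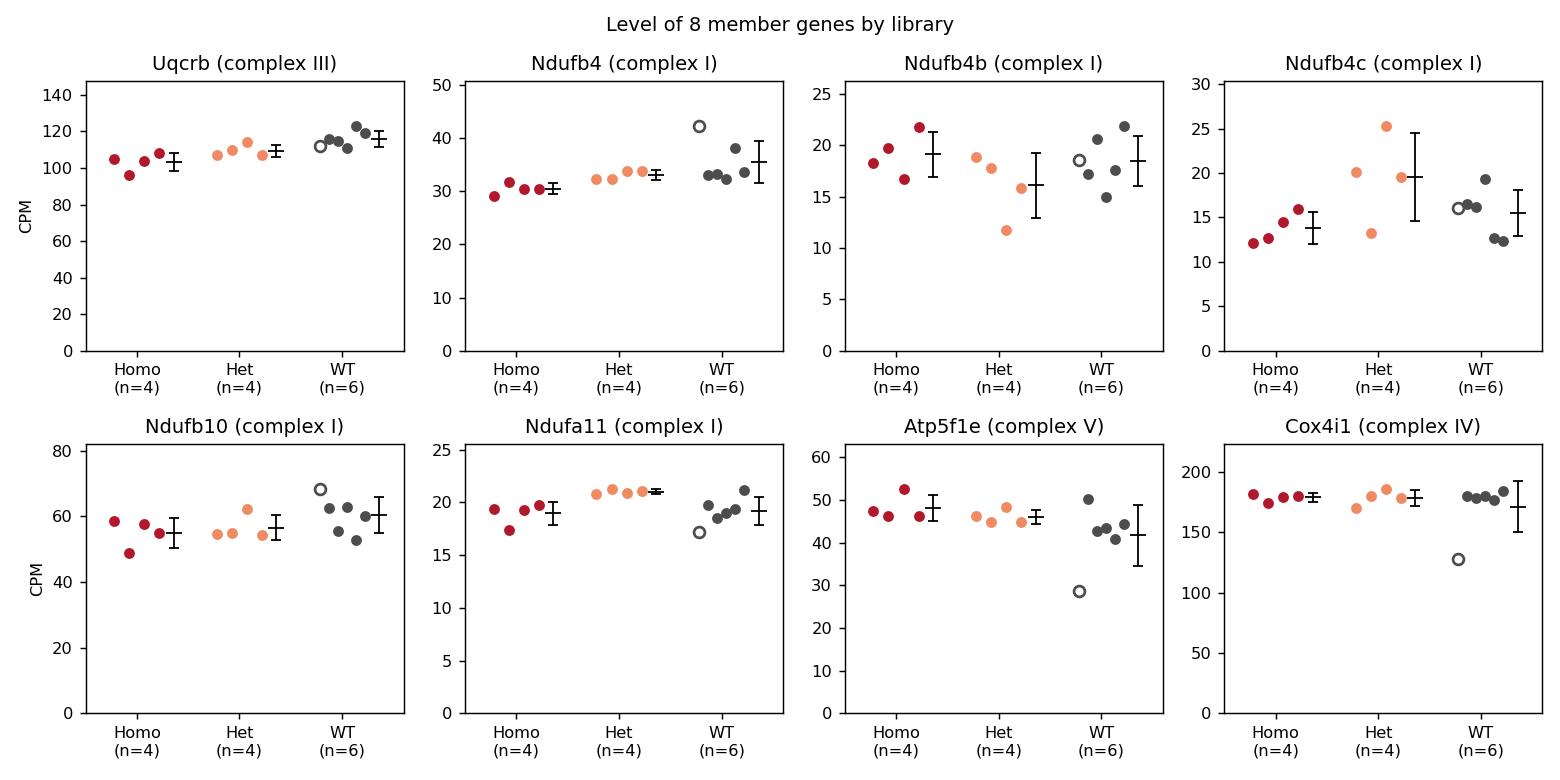
CPM of 8 members in every library for Homo, Het and WT, with mean and SD beside the points. The open circle is WT 1. For Uqcrb and Ndufb4 all Homo libraries lie below all WT libraries, and for Atp5f1e and Cox4i1 WT 1 lies below all other libraries.

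In complex IV, cytochrome c oxidase, 7 of 11 members lay below 1 in Homo over WT, with a median log2 fold change of -0.0141, and all 11 intervals lay within 1.2-fold. Without WT 1, 6 of 11 lay below 1 (median -0.0029). Several complex IV subunits exist as liver and muscle forms encoded by different genes. Cox6a1, the liver form of Cox6a, was at 200, 234, 244 and 217 CPM in Homo, at 218, 226, 222 and 222 CPM in Het, and at 285, 223, 211, 224, 219 and 226 CPM in WT livers. WT 1 was the highest of all libraries, and the fold of Homo over WT was 0.969 with it and 1.02 without it. Cox4i1, the common form of subunit IV, was at 182, 174, 179 and 180 CPM in Homo, at 170, 180, 186 and 178 CPM in Het, and at 128, 180, 178, 180, 177 and 184 CPM in WT livers. Here WT 1 was the lowest of all, and the fold was 1.04 with it and 0.993 without it. The other liver or common forms had folds of Homo over WT of 0.962 for Cox8a, 0.972 for Cox7a2, 1.02 for Cox6b1 and Cox7b, and 1.05 for Cox7a2l, which helps join complexes III and IV into supercomplexes. Without WT 1 the folds of Cox8a and Cox6b1 crossed 1, to 1.01 and 0.99, and those of Cox7a2, Cox7b and Cox7a2l were 0.993, 1.04 and 1.05.

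The muscle, testis and other tissue forms fell outside the level that made a gene a member. That level and the CPM of this paragraph were scaled by library total alone, without TMM. Cox7a1, the heart and skeletal muscle form of Cox7a, was just under it at a mean of 0.977 CPM, and Ndufa4l2, a relative of Ndufa4 induced by hypoxia, was at 0.857 CPM. These 2 genes were also tested and not called. Cox6a2 and Cox8b, further muscle forms, had totals of 15 counts and 1 count over all 14 libraries. The lowest members were Ndufb4c at 16.16 CPM and Atp5if1 at 16.56 CPM. Ndufs6b, Cox6b2, Cox6c2, Cox4i2, Ndufa11b, Cox7b2, Cox8c, Ndufb11b and a second Atp5po entry were at 0.122 CPM or less, the last 2 with no count. No row of the family lay between 0.977 and 16.16 CPM.

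In complex V, ATP synthase, 11 of 18 members lay below 1 in Homo over WT (median log2 -0.0212). Without WT 1 only 6 of 18 lay below 1 (median 0.0172), so the direction of the majority turned with that library. The F1 head is formed by Atp5f1a and Atp5f1b, which bind nucleotide, around the rotor subunits Atp5f1c, Atp5f1d and Atp5f1e. Atp5f1b was at 698, 652, 696 and 665 CPM in Homo, at 626, 634, 713 and 694 CPM in Het, and at 590, 660, 680, 680, 671 and 688 CPM in WT livers. Atp5f1a was at 690, 707, 717 and 717 CPM in Homo, at 670, 649, 741 and 714 CPM in Het, and at 778, 698, 692, 702, 639 and 715 CPM in WT livers. For these partner genes WT 1 was the lowest library for Atp5f1b and the highest for Atp5f1a, and the folds of Homo over WT were 1.02 and 1.01, and 1 and 1.03 without WT 1. Atp5f1e, the epsilon subunit, had the highest fold of all members in Homo over WT with all libraries, a rank it lost without WT 1, where Ndufv3 and Atp5if1 were at 1.13. It was at 47.3, 46.3, 52.6 and 46.3 CPM in Homo, at 46.2, 44.9, 48.2 and 44.7 CPM in Het, and at 28.7, 50.1, 42.8, 43.3, 40.8 and 44.4 CPM in WT livers. The groups overlapped at WT 2. The fold was 1.16 (95% interval 0.981 to 1.36, edgeR p = 0.0789, adjusted p = 0.998, exact permutation p = 0.124) and 1.09 without WT 1 (edgeR adjusted p = 0.828).

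The 3 genes Atp5mc1, Atp5mc2 and Atp5mc3 encode the same mature ring subunit c. Atp5mc1 was at 145 ± 7.11 CPM in Homo, 135 ± 7.08 in Het and 138 ± 14.3 in WT livers (SD, n = 4, 4 and 6). Atp5mc3 was at 94.5 ± 9.76 CPM in Homo, 91.9 ± 6.28 in Het and 96 ± 13.7 in WT livers. Atp5mc2 was at 21.5 ± 3.51 CPM in Homo, 19.8 ± 4.36 in Het and 21.6 ± 5.11 in WT livers. In Homo over WT the folds of Atp5mc1, Atp5mc2 and Atp5mc3 were 1.05, 0.998 and 0.985, and without WT 1 they were 1.07, 1.08 and 1.04. For Atp5mc1 the fold of Homo over Het was 1.08 (95% interval 0.949 to 1.22, edgeR adjusted p = 0.981). The stalk subunits Atp5pb, Atp5pd, Atp5pf and Atp5po had folds of Homo over WT from 0.976 to 1.05, and the membrane subunits Atp5me, Atp5mf, Atp5mg, Atp5mj and Atp5mk from 0.925 to 1.01. Without WT 1 these folds ran from 0.949 to 1.02 and from 0.945 to 1.03. Atp5if1, whose protein inhibits ATP hydrolysis by the enzyme, was at 13.9, 14.3, 18.1 and 19.7 CPM in Homo, at 17.5, 17, 18.5 and 19.1 CPM in Het, and at 21.2, 16, 15.4, 16.1, 11.8 and 13.4 CPM in WT livers. WT 1 was the highest of all 14 libraries for Atp5if1. The fold of Het over WT was 1.15 (95% interval 0.938 to 1.42, edgeR adjusted p = 0.998) and 1.24 without WT 1 (edgeR adjusted p = 0.849).

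In Het against WT livers, which share the WT libraries with the comparison above, 0 of 80 members were called by edgeR and 0 by DESeq2. Over all genes 0.0556% were called (9 of 16201). At an unadjusted p under 0.05 edgeR gave 0 members, against 4.67% of all genes tested, and DESeq2 gave 1 member. The members' median log2 fold change was -0.0235, against -1e-04 over all genes, and 52 of 80 lay below 1. Without WT 1 the median was -0.0065, 43 lay below 1, and Atp5mj, Ndufb5 and Atp5if1 had an unadjusted p under 0.05. With all libraries the 4 complex II genes had folds between 0.954 and 0.962, and 7 of 8 complex III genes lay below 1. Without WT 1 the complex II folds ran from 0.946 to 1.02, with Sdhc the highest, and 5 of 8 complex III genes lay below 1. The smallest p of the members with all libraries was that of Ndufb4c (fold 1.26, 95% interval 0.997 to 1.59, edgeR p = 0.0527, adjusted p = 0.998, exact permutation p = 0.143), followed by Ndufa11 and Ndufb5. Ndufb5, an accessory subunit of complex I, was at 32.3, 35.8, 32.7 and 33.6 CPM in Het, against 34, 38.9, 35.1, 39.6, 37.6 and 37.8 CPM in WT livers. Het 2 lay above the 2 lowest WT libraries. For Ndufb5 in Het over WT edgeR gave a fold of 0.905 (95% interval 0.814 to 1.01, adjusted p = 0.998), and 0.888 without WT 1 (edgeR adjusted p = 0.861).

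Between Homo and Het livers no subunit gene differed past the threshold either. With edgeR 0 of 80 members were called, 1 had an unadjusted p under 0.05, and DESeq2 gave the same counts, against 0.0309% of all genes called (5 of 16201). The median log2 fold change of Homo over Het was -0.0117, with 45 of 80 below 1. With library totals alone it was 0.0509 with 16 below 1, while the median of all genes was 0.0663. Apart from the Ndufb4 genes, the smallest p values were those of Ndufa11 and Ndufs5, small accessory subunits of complex I. Ndufa11 was at 19.4, 17.4, 19.3 and 19.8 CPM in Homo, at 20.8, 21.3, 20.9 and 21.1 CPM in Het, and at 17.2, 19.8, 18.5, 19, 19.4 and 21.2 CPM in WT livers. All Homo libraries lay below all Het libraries, whose SD was 0.228 CPM, and the WT libraries overlapped both ranges. The fold of Homo over Het was 0.902 (95% interval 0.813 to 1, edgeR p = 0.0502, adjusted p = 0.965, exact permutation p = 0.0286, the smallest that 4 against 4 allow). The fold of Ndufs5 in Homo over Het was 0.894 (0.796 to 1, edgeR adjusted p = 0.965).

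Groups without overlap were rare among the members. In Homo against WT all Homo libraries lay below all WT libraries for 2 members, Uqcrb and Ndufb4, and above for 0, which is 2.5% of members, against 1.15% of all genes tested and 0.222% called. In Het against WT there were 0 such members, against 1.2% of all genes. In Homo against Het there were 3, Ndufa11, Atp5mj and Ndufb4, all lower in Homo, or 3.75%, against 2.94% of all genes. Of the 80 members, 17 have another annotated transcript, mostly a processed pseudogene, that matches at 90% identity or more. The match had to cover at least 50% of the transcript searched with, 1 for each gene with a subunit name. Matches over less were not counted, so members outside the 17 may have shorter copies. These 17 include both Uqcrb and Ndufb4, and 15 of them lay below 1 in Homo over WT (median log2 -0.0455). Of the 62 members without such a copy, 39 lay below 1 (median -0.0205). In this set 0 had an unadjusted p under 0.05 in any of the 3 comparisons, against 4.67% to 5.1% of all genes tested. Without WT 1, 11 of the 17 (median -0.0463) and 34 of the 62 (median -0.0041) lay below 1. In the set of 62, Ndufv3 then had an unadjusted p under 0.05 in Homo against WT, as did Atp5mj and Ndufb5 in Het against WT, and 0 were called by edgeR. The remaining member, Ndufb4b, could not be placed in either set.

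Of the members, 6 lie on chromosome 17, the chromosome of Pkd1. A fit without chromosome 17 genes called 5 genes in Homo against WT, in place of 36. None of the 6 was called. Ndufb10, an accessory subunit of complex I, was at 58.5, 48.7, 57.7 and 54.8 CPM in Homo, at 54.6, 55, 62.3 and 54.3 CPM in Het, and at 68.4, 62.5, 55.6, 62.9, 52.7 and 60.1 CPM in WT livers. The groups overlapped (fold of Homo over WT 0.91, 95% interval 0.81 to 1.02, edgeR adjusted p = 0.998), and the fold was 0.935 without WT 1. Ndufv2, a core subunit of complex I, was at 64.1, 61.2, 64.8 and 67.2 CPM in Homo livers. In WT livers it was at 71.7, 66.6, 70.1, 72.1, 66.8 and 69 CPM. The highest Homo value lay just above the lowest WT values (fold of Homo over WT 0.927, edgeR adjusted p = 0.998). Ndufv3 had a fold of 1.06 with WT 1, which stood at 91 CPM against 60 to 66.8 CPM in the other WT libraries. Without WT 1 its fold was 1.13 (edgeR adjusted p = 0.783). The folds of Homo over WT for Ndufa7, Ndufa11 and Cox7a2l were 0.926, 0.989 and 1.05, and 0.947, 0.968 and 1.05 without WT 1.

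No gene of the other lists of the pathway was called. Of the 13 mitochondrially encoded subunits, 8 subunits and electron carriers outside the name rule, 15 complex I assembly factors (of 16 listed), 35 assembly factors of complexes II to V, 16 regulators of mitochondrial biogenesis and 16 genes of mitochondrial dynamics and membranes, 0 were called in any of the 3 comparisons by edgeR. At an unadjusted p under 0.05 there were 3 genes in Homo against WT and 1 in Het against WT, all assembly factors of complexes II to V, and 1 biogenesis gene in Homo against Het. Over all genes tested the shares were 4.73%, 4.67% and 5.1% in these comparisons. The mitochondrially encoded subunits had a median log2 fold change of -0.0401 in Homo over WT, with 8 of 13 below 1, and -0.04 in Het over WT. Without WT 1, which had the highest level of these transcripts, both medians were above 0 (0.0133 and 0.0145) and 3 of 13 lay below 1 in Homo over WT. Among them mt-Co2, a core subunit of complex IV, had a fold of 0.911 and mt-Nd3, of complex I, a fold of 1.07 in Homo over WT, with WT 1 included. Outside the name rule, Etfdh, which passes electrons from fatty acid oxidation to ubiquinone, was at 120 ± 16.2 CPM in Homo, 126 ± 7.7 in Het and 135 ± 9.64 in WT livers, and Coq10a, a coenzyme Q binding protein, had a fold of 1.12 in Homo over WT. The complex I assembly factors Ndufaf1 and Tmem186 had folds of 1.1 and 1.12, and Phb and Vdac3, of the inner and outer mitochondrial membrane, 0.948 and 0.946. Esrrg, a nuclear receptor that drives oxidative genes, was the biogenesis gene in Homo against Het, at 1.51 to 3 CPM in Homo and 0.796 to 1.88 CPM in Het livers. Nrf1, which encodes the factor whose letters are capitalised in the promoters above, was at 9.99 ± 1.07 CPM in Homo, 10.4 ± 1.27 in Het and 11.2 ± 1.53 in WT livers (SD, n = 4, 4 and 6, edgeR adjusted p = 0.998 for Homo against WT). Uqcc2, an assembly factor of complex III that also lies on chromosome 17, was at 6.37, 6.62, 5.4 and 6.04 CPM in Homo, at 6.3, 5.5, 5.93 and 6.29 CPM in Het, and at 6.78, 6.61, 7.57, 7.71, 7.25 and 7.19 CPM in WT livers. All Het libraries and all but 1 Homo library lay below the lowest WT library (fold 0.85 in Homo over WT, edgeR adjusted p = 0.988, exact permutation p = 0.0143, and 0.836 in Het over WT, edgeR adjusted p = 0.993, exact permutation p = 0.00476). Cox16, an assembly factor of complex IV, was at 13.3 ± 1.39 CPM in Homo, 15.8 ± 1.21 in Het and 16.4 ± 2.92 in WT livers (fold of Homo over WT 0.811, edgeR adjusted p = 0.998, exact permutation p = 0.0857).

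The largest departures in the family were between WT 1 and the other WT libraries, and they went both ways. WT 1 was the lowest of all libraries for 11 members and the highest for 31. Subunits of the same complex stood on both sides: in complex III Uqcrfs1 at 48.7 CPM was low (78.2 to 81.6 in the other WT libraries) and Uqcrc1 at 145 CPM was high (127 to 133). In complex IV Cox4i1 was low, and Cox8a at 201 CPM was high (143 to 163). In complex V Atp5f1e and Atp5f1b were low, and Atp5f1d at 166 CPM was high (122 to 139). The SD of the members' log2 deviation from the median of the other libraries of the group was 0.242 in WT 1, against 0.0793 to 0.137 in the other 13 libraries. Over all genes of at least 10 CPM this SD was also largest in WT 1, at 0.485, against 0.267 to 0.417 in the others. Across the 79 members with a length, the deviation in WT 1 had a correlation of -0.04 with exon length and of 0.15 with GC content, as a description of that 1 library. In the other libraries these correlations ran from -0.44 (Homo 3) to 0.31 (Homo 1) with length. With GC content they ran from -0.29 (Homo 1) to 0.24 (Homo 3). The total of WT 1, 28585662 counts, was within the range of the other WT libraries. Without WT 1, 0 members were called in any of the 3 comparisons by edgeR. At an unadjusted p under 0.05 there were then 3 members in Homo against WT, 3 in Het against WT and 2 between Homo and Het. Over all 16032 genes then tested there were 1017, 849 and 910 in these comparisons. For 68 members the Homo over WT interval lay within 1.2-fold.

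**Figure D5:**
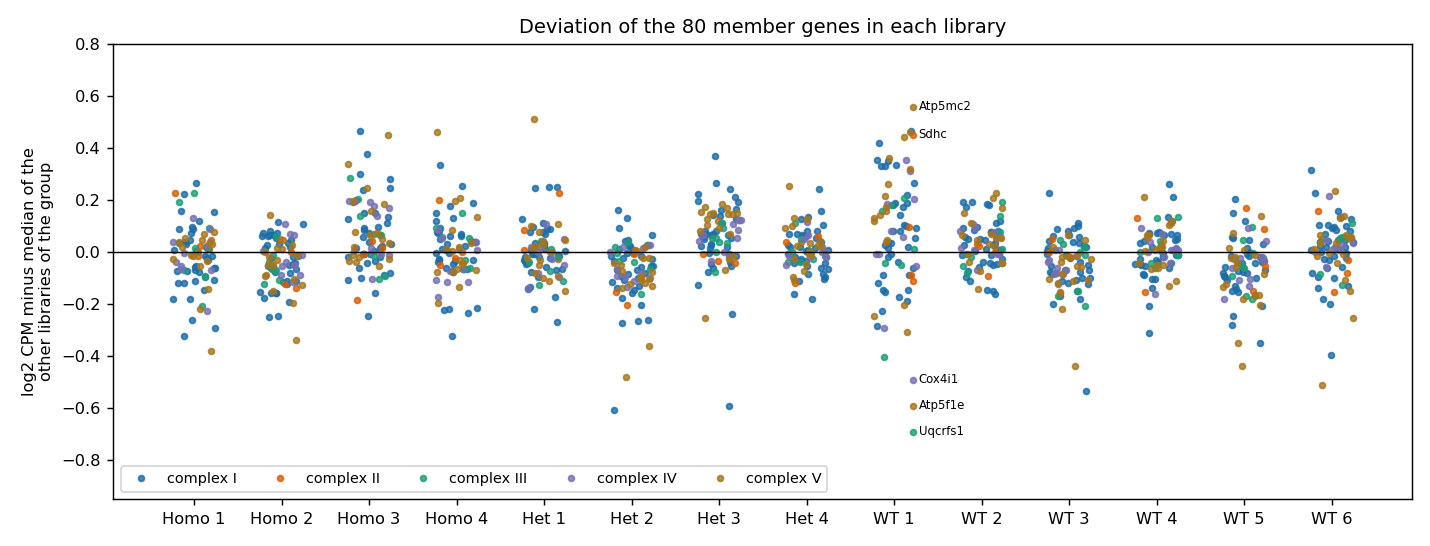
Log2 CPM of each of the 80 members in each library minus the median of the other libraries of its group, coloured by complex. WT 1 has an SD of 0.242, against 0.0793 to 0.137 in the other libraries, and the labelled members are among its lowest and highest.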

How the data were processed

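RNA of whole liver was extracted with Trizol and a Qiagen column and made into libraries with a NuGen Ovation kit, per the labels' protocols. The deposited table holds estimated counts per gene, and the submitters' processing notes name STAR, Salmon and GRCm39. What each tool did, its version, the annotation release and strandedness were not given in the sources used here. Between 6.36% and 8.59% of values per library were not whole (tolerance 0.01), and all were rounded. Each column name is the description of 1 sample. Library totals are given in the report, and they limit precision for counting error only.

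Genes were kept with filterByExpr (count minimum 10, total minimum 15), scaled with TMM and fitted over all 14 libraries with the quasi-likelihood test of edgeR 4.0.16 in R 4.3.3, two-sided. Adjusted p is Benjamini-Hochberg over 16201 genes, called under 0.05. The fit was tested on simulated data. DESeq2 1.42.0, other scalings, no filter, only the compared groups, chromosome 17 left out and each library left out were alternatives. Single genes also had an exact permutation test of mean log2 CPM (prior count 2), two-sided.

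Members and gene lists were chosen with earlier results of these data known. Named members were those with the smallest p (6, 6 and 4 in the 3 comparisons), the 2 highest per kb in each complex, all on chromosome 17 and the tissue forms of complex IV, with 2 genes of smallest p from each list. Other names, such as Uqcrfs1, Sdhc, Atp5mc1 and Atp5if1, were chosen after their values were seen. Of the genes this rule took from the lists, those not described in the report were not called.

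Chromosomes and exon lengths came from GENCODE M21 on GRCm38, a build other than that of the table, so no gene coordinates of the table are given. Copies were found with BLAST 2.17.0. The labels give 1 number per mouse, and no litter, batch or sex. No 2 libraries were duplicates (chi-square per degree of freedom 29.3 or more between libraries of a group). Values of 1 member are not reported here, although it stays in the counts and sums. P-values set a difference between groups against the spread between these mice. Replicate numbers are shared by the groups, but only 2 of 12 same-numbered pairs had a correlation of deviations over 0.1, so libraries were not treated as paired.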

Additional observations from a re-analysis of the deposited data

Results flagged for a closer look

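In 14 of 111 groups of libraries checked, the highest or lowest library stood apart from its nearest neighbour by more than the 95% limit of Dixon's test. Chance alone gives about 1 such group in 20, so single entries carry little weight. Of the 14, 8 were WT 1. It was high for Uqcrc1 (145 CPM), Cox6a1 (285 CPM), Cox8a (201 CPM), Ndufv3 (91 CPM) and Cox7a2 (116 CPM), and low for Ndufb9 (149 CPM), Atp5f1b (590 CPM) and Cox4i1 (128 CPM). Homo 3 was high for the sum of complex IV (1594 CPM, next 1499) and for Atp5f1e (52.6 CPM, next 47.3). Homo 4 was high for Ndufa7 (27.9 CPM) and low for Cox7b (78 CPM). Het 3 was high for Ndufb10 (62.3 CPM), and in Het 2 the members took the smallest percentage of counts (0.739%, next 0.795%).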

How the results depend on the processing

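No member was called in any of the 3 comparisons under any of the alternatives run, and the number at an unadjusted p under 0.05 ran from 0 to 4 in Homo against WT, 0 to 3 in Het against WT and 0 to 2 in Homo against Het. The members' median log2 fold change stayed between -0.0493 and 0.0082, between -0.0488 and -0.0065, and between -0.0317 and 0.0509 in these comparisons. The last value, 0.0509 with library totals alone, was the only one to move by more than the spread between mice, and there the median of all genes was 0.0663. Near-zero folds of Homo over WT changed sign. Ndufa11 was at 0.0238 with library totals alone and 0.0273 with the replicate block. Ndufa3 was at -2e-04 with DESeq2, with RLE factors and without mitochondrially encoded genes, at -0.0024 without a filter and at -0.0284 with the replicate block. Leaving out 1 library at a time, log2 folds ran from -0.01 to 0.0837 for Cox4i1, -0.0888 to 0.023 for Cox6a1, -0.0138 to 0.0782 for Cox6b1, -0.1052 to 0.0103 for Cox8a, -0.0463 to 0.0215 for Ndufa11, -0.0423 to 0.0511 for Ndufa3, -0.0634 to 0.0605 for Sdha and -0.0063 to 0.0575 for Sdhb. The cause was not tested. With the replicate number as a block, members called were 0 in each comparison. The member medians were then -0.0351 in Homo against WT, -0.0342 in Het against WT and -0.0135 in Homo against Het. The labels do not say whether the numbers pair mice. Of 12 same-numbered pairs, 2 had a correlation of deviations over 0.1. Calls over all genes were 61, 32 and 15 with DESeq2, 5, 4 and 1 without chromosome 17 genes, and 19, 9 and 2 with the block, in place of 36, 9 and 5. They were 23 in Het against WT without a filter, 2 in Homo against Het with only those groups fitted, and 23 in Homo against WT without Homo 1. Sums over Ndufb4, Ndufb4b and Ndufb4c and over Uqcrb with its copies, and the set without copies, were chosen after seeing the data. With 4 to 6 mice per genotype, the 95% interval stayed within 1.2-fold for 63 of 80 members in Homo over WT.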
